A study of Mus musculus with 14 samples.

Results

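Oxidative phosphorylation genes were examined in 14 single cells from adult mouse bone. The table's rows were taken where the gene symbol began with Ndufa, Ndufb, Ndufc, Ndufs, Ndufv, Uqcr, Atp5 or Cox followed by 4, 5, 6, 7 or 8, or was Sdha, Sdhb, Sdhc, Sdhd or Usmg5. This gave 86 of the 9558 rows. Of these, 74 encode subunits: 36 of complex I, 4 of complex II, 8 of complex III, 10 of complex IV and 16 of complex V. Another 7 rows encode assembly factors of complex I (Ndufaf1 to Ndufaf5, Ndufaf7 and Atp5sl). The last 5 encode paralogues with a restricted or regulatory use: Ndufa4l2, Cox4i2, Cox6b2, Cox7a1 and Cox7a2l. Ndufa4 was counted with complex IV, where its protein is now placed. Cox4i1 and the subunits encoded by mitochondrial DNA were not analysed here.

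Oxidative phosphorylation makes ATP in the inner mitochondrial membrane. Complexes I (NADH dehydrogenase) and II (succinate dehydrogenase) pass electrons to ubiquinone, complex III passes them on to cytochrome c, and complex IV hands them to oxygen. Complexes I, III and IV pump protons, and complex V, the ATP synthase, lets the protons back to make ATP. Complex II is also an enzyme of the tricarboxylic acid cycle and is made wholly from nuclear genes, whereas each of the others also holds subunits encoded by mitochondrial DNA. The transcription factors NRF1, GABP (of the ETS family) and YY1 are known to act at promoters of nuclear genes for these subunits.

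All 14 cells came from adult Prrx1-CreERT;Tomato mice of the C57BL/6 strain, given tamoxifen at 2 mg per 30 g of body weight on each of 3 days. The Cre is driven by the Prrx1 promoter, active in limb mesenchyme and its descendants, and a cell that recombined turned red. Marrow was flushed from tibiae, radii and ulnae before collagenase digestion, and sorted Tomato-positive cells were picked singly. The labels form 1 group and name 0 animals, so the cells count as 1 sample: values describe these cells, no test between samples was possible, and the spread over cells is not an error between animals. Levels are given as log2(FPKM + 1), quantile-normalized, as read from the deposited values. FPKM is fragments per kilobase of transcript, scaled to the library's mapped fragments, so each level is per length.

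The cells differed in their stromal and blood cell genes. The mean of the 10 stromal genes examined (collagens, Dcn, Lum, Mgp, Serpinf1, Pdgfra, Pdgfrb and Prrx1) was between 4.11 in cell 14 and 9.70 in cell 1, and Prrx1 was detected in 11 cells. Cells 14 and 11 had means over 8 leukocyte genes of 9.92 and 9.54, while the other 12 cells lay between 1.89 and 6.93. The mean of 7 neutrophil genes was between 3.17 in cell 4 and 10.74 in cell 6, where the granule protein genes Mpo and Elane stood at 11.25 and 8.13. Elane was listed at 0 in 11 cells and Mpo in 5. Camp, Ngp, Lcn2 and Retnlg were detected in all 14 cells. None of the 3 erythroid markers had a row.

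Short stretches of promoter show the motifs searched for in these genes, and 6 of them are printed here because they lie before the start of members named later, with at least 1 from each complex. The motifs were GCGCANGCG for NRF1, CCGGAAG for the ETS family and AAGATGGCG for YY1, each on both strands, in windows from 250 bases before to 50 after the RefSeq start (GRCm38.p6). Capitals mark the match, with 20 bases on either side, read 5′ to 3′ on the gene's strand. Ndufa11 lies on the plus strand and the other 5 on the minus strand. The matches in Ndufa11 and Atp5g2 overlap a match on the opposite strand that is shifted by 1 base.
Ndufa11 (complex I, NRF1, chr17:56717682-56717730): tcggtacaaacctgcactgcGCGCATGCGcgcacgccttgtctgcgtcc
Sdha (complex II, NRF1, chr13:74350267-74350315): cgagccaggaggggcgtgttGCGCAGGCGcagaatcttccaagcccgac
Uqcr11 (complex III, ETS, chr10:80406861-80406907): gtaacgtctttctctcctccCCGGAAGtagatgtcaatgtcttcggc
Cox6b1 (complex IV, ETS on the opposite strand, chr7:30626116-30626162): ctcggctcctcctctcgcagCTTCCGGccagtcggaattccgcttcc
Cox6a1 (complex IV, NRF1, chr5:115349047-115349095): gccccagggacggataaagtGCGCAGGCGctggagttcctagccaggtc
Atp5g2 (complex V, NRF1, chr15:102671061-102671109): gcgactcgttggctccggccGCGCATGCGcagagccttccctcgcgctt

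A RefSeq window was matched by symbol for 62 of the 74 subunits. The NRF1 motif was in 19 of these windows (30.6%), against 14.4% of the windows of 7368 genes of the table and 6.47% of all 27025 windows. The ETS motif was in 24.2% of the subunit windows, against 18.4% for the table and 9.12% for all windows. The YY1 motif was in 9.68%, against 3.33% and 1.49%. At least 1 of the 3 motifs was in 53.2% of the subunit windows and 31.7% of those of the table, whose median GC contents were 58.5% and 60.7%. By complex, the NRF1 motif was in 8 of 32 windows of complex I, 2 of 3 of complex II, 2 of 5 of complex III, 1 of 9 of complex IV and 6 of 13 of complex V. A match describes the letters only. NRF1 motifs stand before members with low levels, such as Sdha and Ndufa11, as well as before members with high ones, such as Cox6a1.

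The subunits were among the most widely and highly detected genes of these cells. At an FPKM of 1 or more, 66 of the 74 (89.2%) were present in every one of the 14 cells, against 15.8% of all rows. In at least 7 cells, all 74 were present, against 51.7% of all rows. Over all 86 rows the counts were 69 and 80. The median over the subunits of the mean level was 7.79, against 1.70 over all rows, and 61 of the 74 were in the top 10% of rows by mean. Cytosolic ribosomal proteins, the other large set of short, highly expressed genes, had a median of 9.05 with 96.5% of 86 rows in all cells. Mitochondrial ribosomal proteins, which are also nuclear-encoded and make the mitochondrial subunits, had a median of 3.45 with 27.3% of 77 rows in all cells. Among the 8 subunits missed in at least 1 cell were Sdha and Sdhc of complex II and Uqcrc1 and Uqcrfs1 of complex III. Without cells 11 and 14, or without cells 2 and 6, 67 of the 74 were in all remaining cells.

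**Figure D1:**
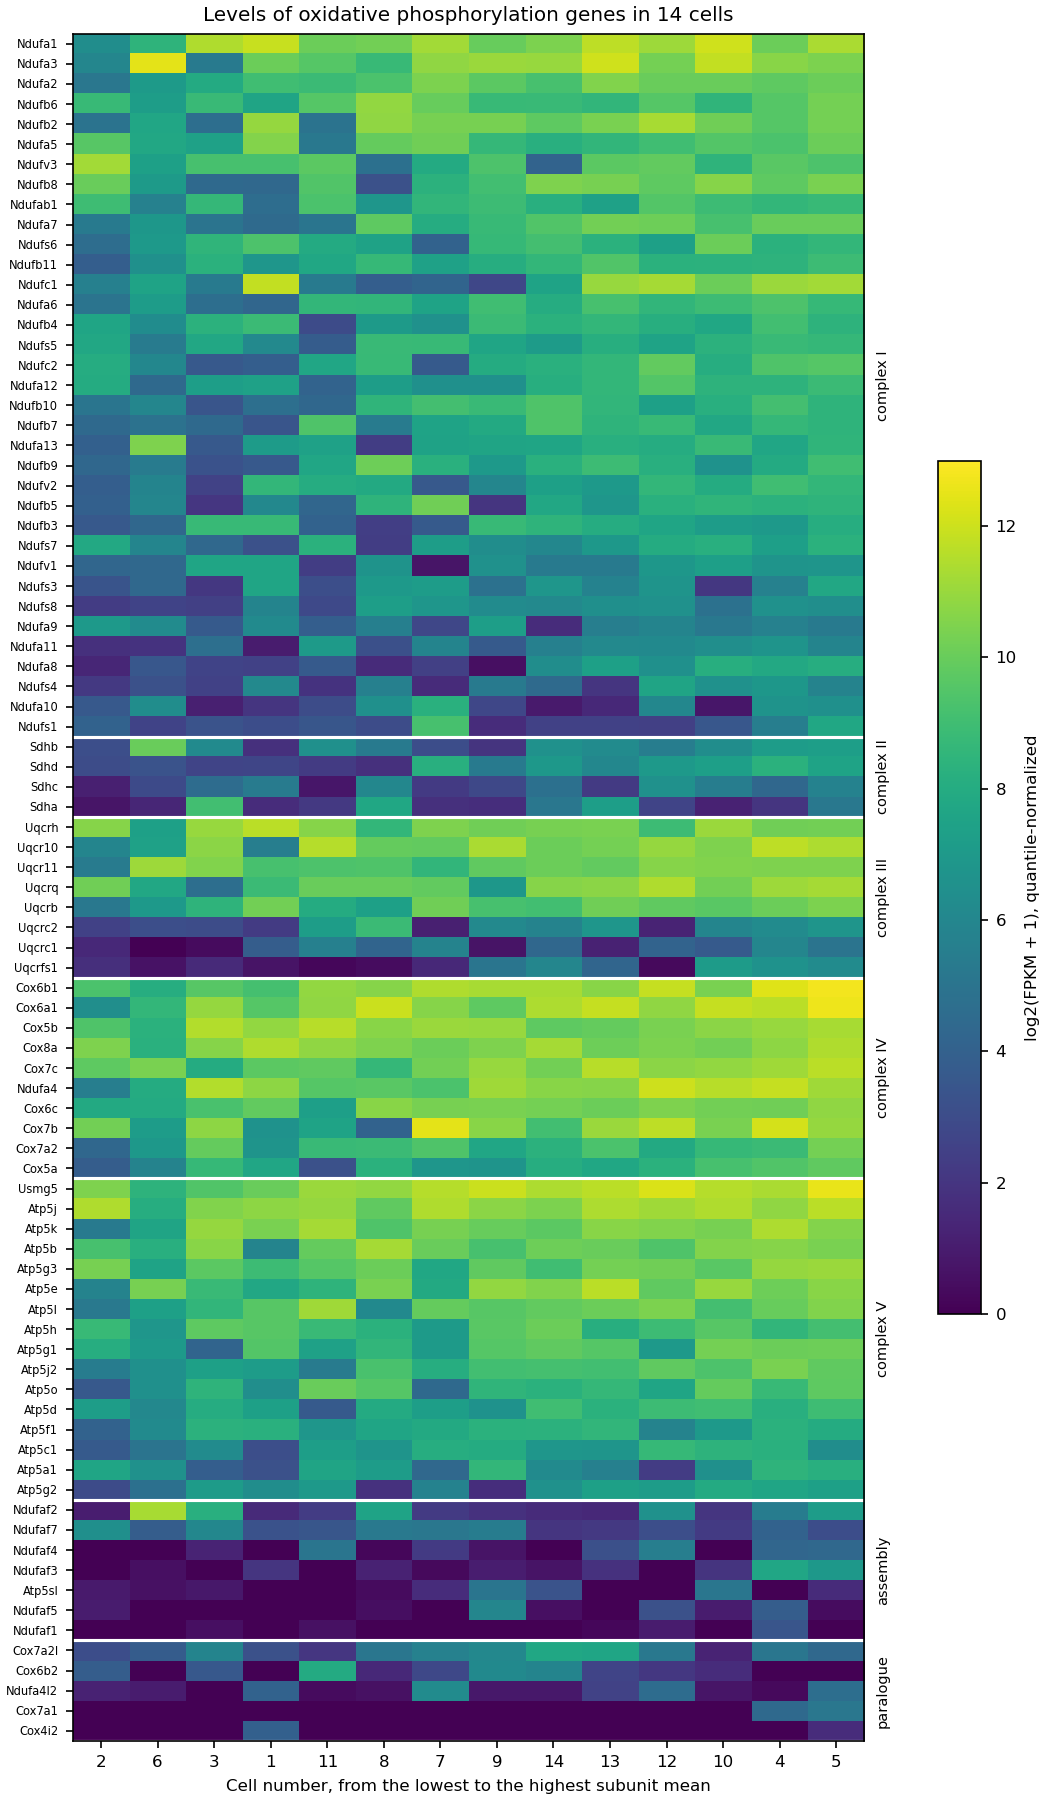
Levels, as log2(FPKM + 1) after quantile normalization, of the genes (rows, grouped by complex and sorted by mean, with 1 of the 86 not shown) in the 14 cells (columns, from the lowest to the highest subunit mean). Complex IV and most of complex V are high in most cells, and assembly factors and paralogues are mostly low. Dark patches in the columns of cells 2, 3, 1 and 11 mark subunits that fall far below their usual level in those cells.

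Transcript length moved with the level. Across the 74 subunits the Spearman correlation of length with mean level was -0.64, a description across genes that are not independent. Among rows shorter than 1000 bases, the 49 subunits had a median of 8.57 and 98.0% of them were in all cells, against 3.86 and 42.0% for all 1037 such rows. With the division by length undone, the median over the subunits was 7.56, against 2.50 over all rows with a length. The Spearman correlation of length with mean level over the 74 subunits was then -0.37. FPKM divides by length, whereas the library kit reads the 3′ end of a transcript.

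**Figure D2:**
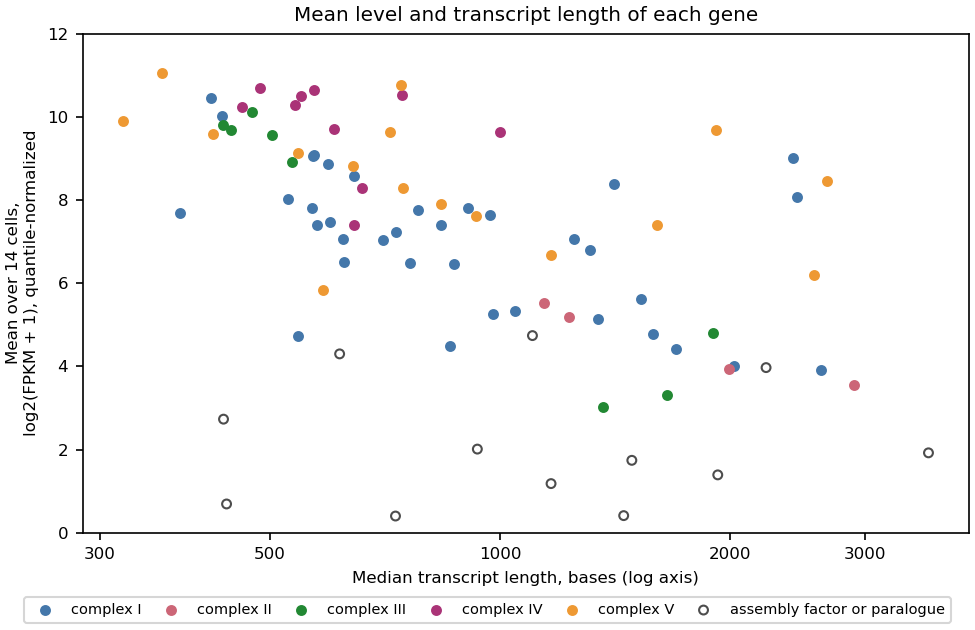
Mean level over the 14 cells, as log2(FPKM + 1), against the median length of the gene's protein-coding transcripts in bases on a log axis. Each point is a gene, coloured by complex, with assembly factors and paralogues as open circles; short subunits sit highest, and the open circles are at 4.74 or below at every length.

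The 5 complexes differed within the same cells in the mean over their measured subunits, with complex IV highest and complex II lowest. The mean over its subunits was 9.79 ± 1.02 for complex IV (SD over 14 cells), 8.56 ± 0.89 for complex V, 7.40 ± 1.16 for complex III, 7.03 ± 1.03 for complex I and 4.55 ± 1.37 for complex II. Complex IV was the highest in 14 of 14 cells. Complex II was the lowest in 13, the exception being cell 3, with 5.63 for complex II and 5.5 for complex I. The order compares unlike classes of subunit. All 10 rows of complex IV were classed as accessory and all 4 of complex II as core subunits. In complex III, the accessory subunits averaged 9.62, near complex IV, and the core subunits 3.72, below complex II.

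Each of the 10 differences was taken within cells. Complex IV minus complex I had a median of 2.70 (range 1.94 to 4.59), and complex IV minus complex II 5.16 (3.54 to 7.06). Complex IV minus complex III was 2.33 (1.19 to 3.79). Complex V minus complex I was 1.34 (0.48 to 2.77), complex V minus complex II 3.98 (2.64 to 5.93) and complex V minus complex III 1.16 (0.56 to 1.97), each above 0 in all 14 cells. Complex V minus complex IV was -1.08 and below 0 in every cell. Complex III minus complex II was 2.94 (0.67 to 4.91), also above 0 in 14 cells. Complex III minus complex I was 0.39 (-1.08 to 1.77), above 0 in 10 cells, within its spread over cells as a mean over members. With the median over members it was 1.58, above 0 in 14 cells. Complex II minus complex I was -2.74, above 0 in cell 3 alone.

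The median transcript length was 588 bases for complex IV, 745 for complex V, 520 for complex III, 810 for complex I and 1610 for complex II. The order of the means was the same with the division by length undone, at 9.09 for complex IV, 8.33 for complex V, 6.95 for complex III, 6.85 for complex I and 5.21 for complex II. Complex V and complex III changed places with the median over members (median difference -0.11, above 0 in 5 cells). With the 5 paralogues counted in complex IV, complex IV minus complex III was -0.09 and complex V minus complex IV was 1.39. Without cells 11 and 14, complex IV minus complex I was 2.66 and complex IV minus complex II 5.16, and without cells 2 and 6 these were 2.74 and 5.16.

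**Figure D3:**
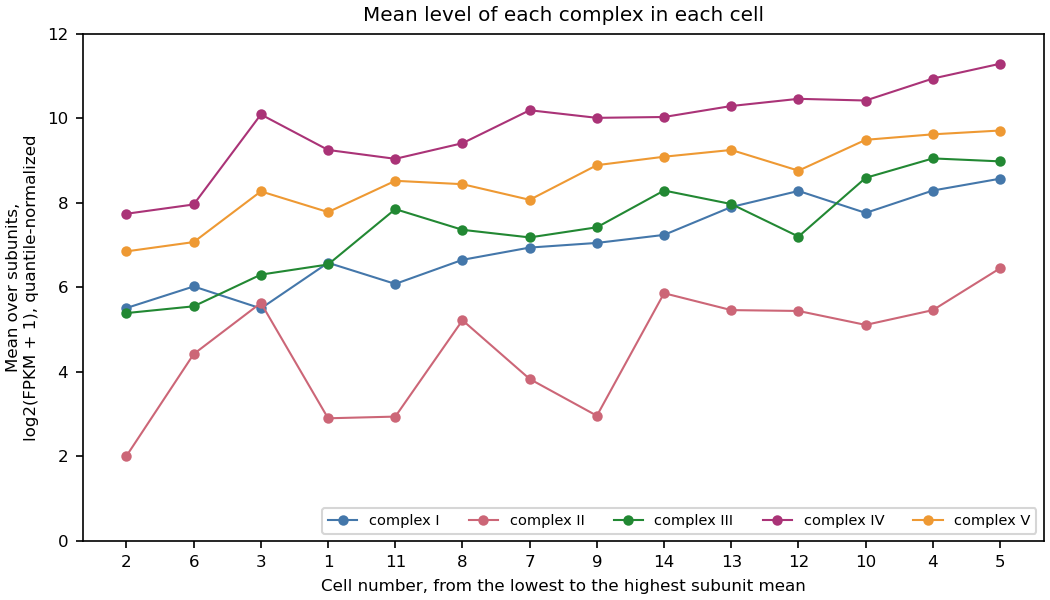
Mean level of the subunits of each complex, as log2(FPKM + 1), in each cell, with the cells sorted by the mean over all 74 subunits. The line of complex IV is on top in all 14 cells and that of complex II at the bottom in 13, while the lines of complexes I and III cross.

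In complex I, the small accessory subunits were higher than the catalytic ones. The 7 nuclear core subunits, which carry the flavin and iron-sulfur clusters, averaged 5.45 ± 0.98, and the 29 accessory subunits 7.41 ± 1.08. Core minus accessory had a median of -2.03 and was below 0 in all 14 cells (-1.34 with the division by length undone, and the median length was 1310 bases for core and 704 for accessory subunits). Matrix arm subunits averaged 6.57 ± 0.92 and membrane arm subunits 7.35 ± 1.25, with a median difference of -0.96 that was above 0 in 3 cells.

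Ndufa1, a small membrane arm subunit encoded on the X chromosome (ENSMUSG00000016427, chrX:37187588-37191163, minus strand, in GRCm38 as annotated by GENCODE M21, as for all genes below), was the highest of complex I. Its level was 6.36 in cell 2 at the lowest, with a median of 10.78 and 12.07 in cell 10 at the highest. Cells 2 and 6 (8.45 in cell 6) were below all of the other 12.

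Ndufs1, the largest core subunit, with several iron-sulfur clusters (ENSMUSG00000025968, chr1:63143596-63176833, minus strand), was the lowest by mean. It was at 1.67 in cell 9, had a median of 3.20, and reached 9.21 in cell 7 and 7.75 in cell 5. Cells 5 and 7 were thus set apart from the others, in which it stayed at or below 5.58.

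Ndufc1, a membrane arm accessory subunit (ENSMUSG00000037152, chr3:51404677-51408988, minus strand), varied most, with an SD of 3.23. Its levels were widely spread. In cells 1, 4, 5, 10, 12 and 13 it stood between 10.07 and 11.79, and in cells 2, 3, 7, 8, 9 and 11 between 2.79 and 5.65. Cells 6 and 14 lay between, at 7.55 and 7.54.

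Ndufb6, another membrane arm subunit, varied least within complex I, between 7.26 and 10.91, with a median of 8.80 and an SD of 0.99. Ndufa3 had its highest level, 12.48, in cell 6, where most subunits were low.

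Complex II had the lowest mean over subunits. Its single subunits nevertheless all had higher means than Uqcrfs1 (3.03) and Uqcrc1 (3.32) of complex III. Sdhb, the iron-sulfur subunit (ENSMUSG00000009863, chr4:140961203-140979193, plus strand), had the highest mean of its 4 subunits. Its level was 1.82 in cell 1, with a median of 6.24 and a highest value of 10.05 in cell 6. Cells 1, 2, 7 and 9 were low, at or below 3.12, and the others stood at 5.35 or more.

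Sdha, the flavoprotein that oxidizes succinate (ENSMUSG00000021577, chr13:74322254-74350280, minus strand), had the lowest mean and the largest SD, 2.77. It was at 0.74 in cell 2, with a median of 2.07 and 9.05 in cell 3 at the highest. It was high in cells 3, 8 and 13, intermediate in cells 5 and 14, and at or below 2.69 in the other 9. The membrane anchors Sdhc and Sdhd had medians of 4.48 and 5.70. The cell with the most Sdhb, cell 6 at 10.05, had Sdha at 1.40, although the 2 proteins join in the same enzyme. These too are RNA levels per length, with median transcript lengths of 1142 bases for Sdhb and 2900 for Sdha.

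Complex III held 2 unlike sets of subunits. The 3 nuclear core members that the rule takes, Uqcrc1, Uqcrc2 and Uqcrfs1, averaged 3.72 ± 1.74, and its 5 small accessory subunits 9.62 ± 0.97. The median difference, core minus accessory, was -5.54 and lay between -8.44 and -4.43 over the cells. The median lengths were 1650 and 474 bases.

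Uqcrh, the acidic hinge protein that helps cytochrome c to dock (ENSMUSG00000063882, chr4:116066965-116075071, minus strand), was the highest. Its level was 7.37 in cell 6, with a median of 10.36 and 11.64 in cell 1. Cells 6, 8 and 12 were at 8.92 or below and the other 11 at 10.17 or more.

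Uqcrfs1, the Rieske iron-sulfur protein (ENSMUSG00000038462, chr13:30540308-30545362, minus strand), was the lowest of all 74 subunits by mean. It was detected in 9 cells, with a lowest value of 0.25 in cell 11, a median of 1.65 and a highest of 7.13 in cell 10. Cells 4, 5, 9, 10, 13 and 14 had it at 4.22 or more and the other 8 at 1.77 or below, with none between. Uqcrc1, a core protein outside the redox path, was listed at 0 in cell 6 and reached 5.96 in cell 4.

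All 10 measured subunits of complex IV were detected in every cell, and their means lay between 7.41 and 10.70. These are nuclear-encoded subunits that surround the mitochondrial catalytic core. Cox6b1, which faces the intermembrane space (ENSMUSG00000036751, chr7:30616861-30626151, minus strand), was the highest. Its level was 8.12 in cell 6, with a median of 10.79 and 12.77 in cell 5. Cells 4 and 5 were above 12, and cells 1, 2, 3 and 6 below 10.

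Cox5a, a subunit on the matrix side (ENSMUSG00000000088, chr9:57521274-57532426, plus strand), was the lowest. Its lowest level was 3.22, in cell 11, its median 7.91 and its highest 9.83, in cell 5. Cells 2 (3.81) and 11 stood apart from the rest, which lay at 5.83 or above.

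Cox7b (ENSMUSG00000031231, chrX:106015700-106022450, plus strand), a small single-pass subunit, had the largest SD of complex IV, 2.42. It was at 4.08 in cell 8, with a median of 10.52 and 12.48 in cell 7. Cells 1, 6, 8 and 11 had it at 7.53 or below and the other 10 at 9.08 or more. Cox8a and Cox5b varied least, with SDs of 0.79 and 0.90. In cell 11, Cox5b, also on the matrix side, had its highest level, 11.58, and Cox5a its lowest.

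All 16 subunits of complex V were also detected in every cell. Usmg5, which encodes the small Fo-associated protein DAPIT (ENSMUSG00000071528, chr19:47083464-47090647, minus strand), had the highest mean of the 74 subunits, 11.05 ± 1.13. Its level was 8.41 in cell 6, with a median of 11.37 and 12.56 in cell 5. Cells 3 and 6 were below 10.

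Atp5g2, which encodes the ring-forming c subunit (ENSMUSG00000062683, chr15:102662864-102672352, minus strand), was the lowest and the most variable, with an SD of 2.15. Its lowest level was 1.71, in cell 9, its median 6.79 and its highest 7.96, in cell 10. Cells 2, 8 and 9 were at 2.97 or below and the other 11 at 4.82 or more.

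F1 head subunits, which hold the catalytic sites, averaged 7.95 ± 1.05 and the other subunits of the ATP synthase 8.83 ± 0.96. The median difference, F1 minus the rest, was -0.77, above 0 in 2 cells, and was -0.10 with the division by length undone. Within the head, Atp5b (catalytic beta) had a median of 10.03 and Atp5a1 (alpha) 6.57, although the 2 proteins occur in equal number in the enzyme. These are RNA levels per length, not protein amounts, with median transcript lengths of 1916 bases for Atp5b and 2572.5 for Atp5a1. In cell 1, Atp5b was at its lowest, 5.86. Atp5j of the peripheral stalk had the second highest mean of complex V, 10.76.

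In the pairs of tissue isoforms that could be compared, the widely used isoform was higher. Cox6a2, Cox7b2, Cox8b and Cox8c had no row and Cox4i1 was not analysed, so their pairs were not compared. Ndufa4 was higher than Ndufa4l2, an isoform known to be induced by low oxygen, in 14 of 14 cells, by a median of 8.58. Cox6b1 was higher than the testis isoform Cox6b2 in 14 cells, by 8.37. Cox6b2 was still present in 10 cells, with its highest levels, 7.95 and 6.19, in cells 11 and 9. Cox7a2 was higher than the muscle isoform Cox7a1 in 14 cells, by 8.11.

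Cox7a1 was found in cells 4 and 5 only, at 4.44 and 5.16, and was listed at 0 in the other 12. These are also the cells with the highest subunit means. Cox4i2, the lung and low-oxygen isoform of subunit 4, stood at 4.0 in cell 1, at 1.66 in cell 5, and was listed at 0 elsewhere. Cox7a2l, a factor that joins complexes III and IV into supercomplexes, was detected in all cells, between 1.31 and 7.75, below Cox7a2 by a median of 3.63.

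The 3 genes for the c subunit of complex V encode the same mature protein with different import sequences. Atp5g3 was at 7.54 to 11.07, Atp5g1 at 4.17 to 10.30 and Atp5g2 at 1.71 to 7.96. Atp5g3 exceeded Atp5g2 in 14 cells, by a median of 2.82, and Atp5g1 in 11 cells, by 0.79. Atp5g1 exceeded Atp5g2 in 12 cells, by 2.40. In cell 3, Atp5g1 was at its lowest, 4.17, while Atp5g3 stood at 9.73. Reads from such close paralogues, and from processed copies of these short genes, may be split or shared by the authors' quantification, so the levels of single isoforms are uncertain.

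Assembly factors were far less abundant than the subunits they help to build. Of the 7 among the 86 rows, 2 were found in every cell, 4 in at least 7 cells, and the median of their means was 1.74. Over a wider list of 14 measured complex I assembly genes the median was 1.83, with 8 detected in at least 7 cells, close to the 51.7% of all rows. For 29 assembly genes of complexes II to V the median was 2.17, with 17 in at least 7 cells.

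Some assembly genes were nevertheless high. Uqcc2, needed for complex III, had a median of 8.01. The copper chaperone Cox17 had a median of 8.69, and Pet100, a complex IV assembly factor, 8.40. Ndufaf2, a late assembly factor of complex I, had a median of 2.27 but stood at 11.28 in cell 6, the cell that also held the highest Sdhb. Timmdc1, another complex I assembly factor, also had its highest value, 6.97, in cell 6.

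The medians of the electron carrier, transport, tricarboxylic acid cycle and glycolysis lists lay between those of assembly factors and subunits. That of regulators of mitochondrial biogenesis lay below both. All 6 electron carrier and supercomplex genes were found in at least 7 cells, and the median of their means was 5.48. Cycs (cytochrome c) had a median of 6.66, and Cyc1 (cytochrome c1), a member of complex III whose symbol the rule does not take, 3.68. Of 8 genes for nucleotide and phosphate transport, 7 passed 1 FPKM in at least 7 cells, led by the ADP/ATP carrier Slc25a5 (median 8.62) and the ATP synthase inhibitor Atpif1 (8.77). Tricarboxylic acid cycle genes had a median of 3.02, with 12 of 14 in at least 7 cells, and Mdh2, malate dehydrogenase, was highest with a median of 7.21. Glycolysis genes had a median of 4.75, with 13 of 14 in at least 7 cells. Regulators of mitochondrial biogenesis had a median of 1.42, with 4 of 10 in at least 7 cells. Over all rows the median was 1.70, and 51.7% of rows were detected in at least 7 cells.

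The subunits as a group differed in level between cells. Cells 2 and 6 had the lowest means over the 74 subunits, 5.90 and 6.37. Cells 3, 1 and 11 followed with 6.81, 6.99 and 7.03. Between 7.41 and 8.44 lay cells 7, 8, 9, 10, 12, 13 and 14. Cells 4 and 5 had the highest means, 8.87 and 9.11. The SD over cells was 0.95. The number of subunits detected hardly changed, with 72 to 74 per cell, whereas 43 subunits were at a log2 level of 5 or more in cell 2 and 73 in cell 5.

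The low means had 2 different forms. In cells 1, 2, 3 and 11, some subunits kept their usual level and the others fell several log2 units below it, with few between. A value was called far below when it was at least 3 log2 units, or 8-fold on the FPKM + 1 scale, under the log2 mean FPKM of the 13 other cells, where that mean was above 7. This threshold was chosen after the values were seen. It applied to 57 subunits and 794 pairs of a subunit and a cell.

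Of the 794 pairs, 105 (13.2%) were far below, against 26.4% of such pairs over all rows, 2.95% for cytosolic and 35.3% for mitochondrial ribosomal proteins. The filter takes the mean on the linear scale, so a row can pass through few high cells and be far below in the rest. Per cell, 750 to 784 other rows passed it, yet 375 other rows had a mean level of 7 or more, against 50 subunits. The shares of other rows are thus no like baseline. In cell 2, 31 of 57 subunits were far below, while 24 of the 57 were within 1.5 log2 units of the other cells or above. The share in cell 2 was 54.4%, against 38.9% of the other rows of that cell. Cell 3 had 16 subunits far below (28.1%), cell 1 had 15 (26.3%) and cell 11 had 14 (24.6%). In these cells the share of other rows was larger, at 40.7%, 31.7% and 29.5%. A like split in fewer subunits was seen in cells 7 and 8, whose subunit means were not among the lowest. There 7 and 8 subunits were far below, and 42 in each cell were within 1.5 log2 units or above. Cell 9 had 4 far below. Cells 4, 5, 10 and 13 had none, and cells 12 and 14 had 1 each. The far-below values had a median deviation of -4.46 with an SD of 0.83, and the 602 values near or above the usual level had 0.20 with an SD of 0.77. The far-below values themselves lay between 1.82 and 8.41, all above the detection level of FPKM 1, so the count of detected subunits does not show them.

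Cell 6 had the other form. Nearly all of its subunits were lowered by a like amount: the median deviation was -2.43 (quartiles -2.65 and -1.95), and 40 of 56 subunits were at least 2 log2 units down but only 8 at least 3. The other rows of cell 6 showed the same, with a median deviation of -2.16, against -0.29 to -1.37 in the 13 other cells. In cell 6, 7 subunits were above the mean of the other cells, those by more than 1 log2 unit being Sdhb (4.04 above the mean of the other cells), Ndufa13 (2.92 above, at 10.51), Ndufa3 (1.85 above) and Uqcr11 (1.17 above, at 11.11).

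**Figure D4:**
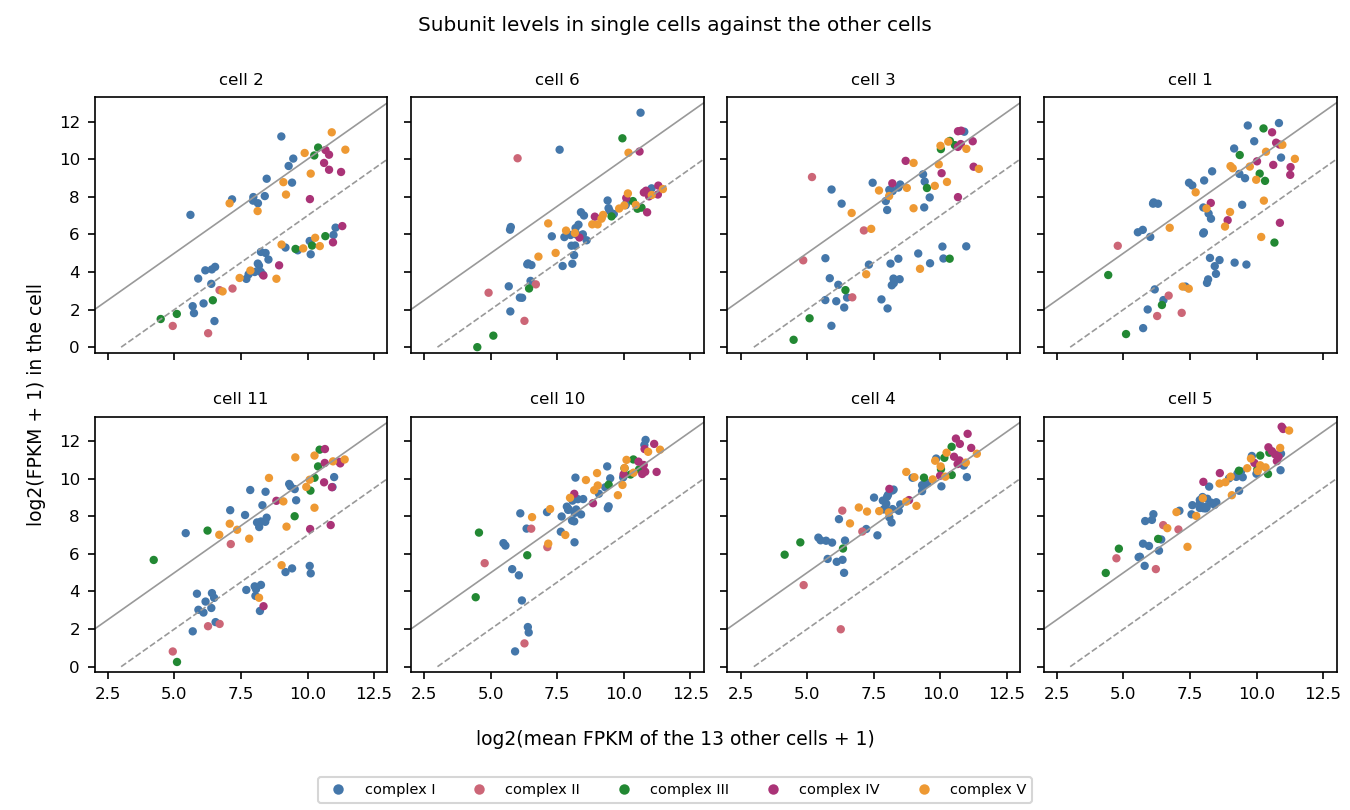
Each panel plots the 74 subunits in a single cell, as log2(FPKM + 1), against the log2 mean FPKM of the 13 other cells; the solid line marks equality and the dashed line 3 log2 units below it. In cells 2, 3, 1 and 11 the points form an upper and a lower band, in cell 6 a single band shifted down by 2.43, and in cells 10, 4 and 5 a single band near equality except for a few low-level genes.

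The lower band held members of complexes I, III, IV and V. Far-below pairs were 17.9% of 364 in complex I, 11.4% of 70 in complex III, 7.14% of 140 in complex IV and 8.70% of 207 in complex V. In complex II only Sdhb was assessed, and it passed the mean of 7 only with cell 6 among the other cells (6.01 without it), so its 4 far-below values of 13 say nothing of complex II. Without Sdhb, 101 of 781 pairs (12.9%) were far below. In cell 2, complex I had 16 of 26, complex III 3 of 5, complex IV 4 of 10 and complex V 7 of 15. In cell 3, complex I had 13 of 26 and complex IV 0 of 10.

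The subunits that were far below were in part shared between cells and in part not. Ndufb7, Ndufb9, Ndufb10, Ndufa6 and Ndufa7 were each far below in cells 1, 2 and 3. Ndufs5 and Ndufb4 were far below in cell 11 alone. The overlap was not compared with that of other rows. Of the 57, 8 were never far below: Ndufb6, Cox5b, Cox6c, Cox7c, Cox8a, Atp5g3, Atp5h and Atp5j. Another 21 were far below in 1 cell, 11 in 2 and 17 in 3 or more, up to 6 for Ndufc1. Matching counts for other rows were not made. Over all rows, 26.4% of pairs were far below, against 13.2% for the subunits, with the limit of the filter given above. Ndufb3 was far below in 5 cells. Within complex IV, Cox7b was far below in 4 cells and Cox5a in 2. Ndufaf2, no subunit, was far below in 8 of 13 cells, where the mean of the other cells passed 7 only because cell 6 was among them.

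Beside this, the share of other rows far below was 38.9% (cell 2), 40.7% (cell 3), 31.7% (cell 1) and 29.5% (cell 11), against 20.1% (cell 4) and 18.5% (cell 5). Cell 7 had 32.3% of other rows and 7 of 57 subunits, and cell 14 had 32.0% of other rows but 1 of 57 subunits. Over the 14 cells this share had a Pearson correlation of -0.60 and a Spearman correlation of -0.56 with the subunit mean (Spearman between -0.88 and -0.46 with 1 cell left out). The number of rows at 0, between 1531 and 2254 per cell, had a Spearman correlation of -0.17 with the subunit mean. The depth of the libraries is unknown, and its part in the far-below values was not tested.

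Pairs of subunits varied together only weakly over the 14 cells. The median Spearman correlation was 0.23 for 829 pairs within a complex and 0.25 for 1872 pairs of different complexes, and without cells 2 and 6 these medians were 0.16 and 0.17. Over all pairs of rows of the table, in all cells, it was 0.00. For pairs of subunits with a mean of 7 or more it was 0.29, against 0.05 for pairs of other rows that high. Within complexes it was 0.37 in complex IV, 0.31 in complex V, 0.20 in complex I, 0.19 in complex III and 0.15 in complex II. The points of each pair share their libraries and the quantile normalization.

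Across cells, the highest positive correlation of the subunit mean was with mitochondrial ribosomal proteins, with a Pearson correlation of 0.82 and a Spearman correlation of 0.85. With cytosolic ribosomal proteins these were 0.41 and 0.33. With the tricarboxylic acid cycle they were 0.67 and 0.67, with electron carriers 0.74 and 0.71, and with glycolysis 0.59 and 0.51. With the 10 biogenesis regulators they were -0.88 and -0.84: their mean was highest, 2.98, in cell 2 and lowest, 0.92, in cell 5. Of those regulators Gabpa, Pprc1 and Yy1 had their highest values in cell 2, at 5.29, 7.50 and 7.56. All the others had theirs in other cells. Nrf1 and Polg were listed at 0 in cell 2, and Tfam was highest, 4.66, in cell 4. These are descriptions over 14 cells that share the quantile normalization, among 18 measures correlated, and no p is given.

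Blood cell genes were set beside the subunit means. The correlation was -0.52 (Pearson) and -0.60 (Spearman) with the neutrophil genes, -0.31 and -0.50 with the leukocyte genes, -0.23 and -0.55 with the macrophage genes, and -0.14 and -0.14 with the stromal genes. Without the pair of cells farthest from the median of each list, the Pearson correlation was -0.32 with neutrophil genes (cells 6 and 11 left out), -0.50 with leukocyte genes (cells 11 and 14) and -0.68 with macrophage genes (cells 8 and 14). Cells 11 and 14, both high in leukocyte genes, had subunit means of 7.03 and 8.06, on either side of the median of 7.58. Cell 2, the lowest in subunits, had leukocyte and neutrophil means of 3.62 and 5.94, against medians over cells of 3.46 and 5.82. The part of blood cell RNA in the differences between cells was not tested.

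**Figure D5:**
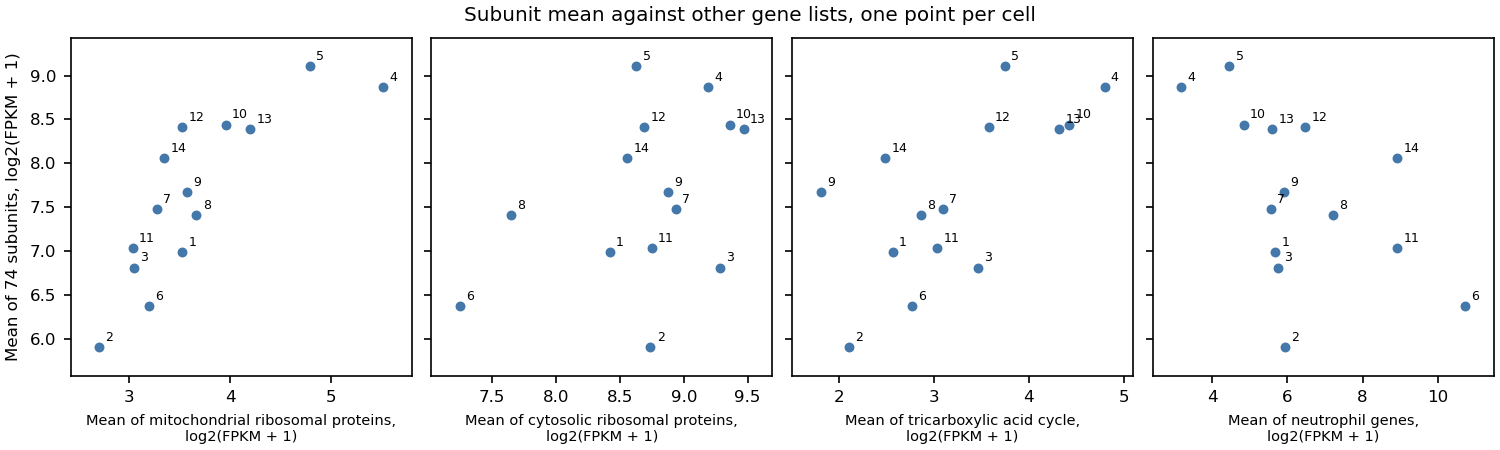
Mean of the 74 subunits in each cell (vertical axis) against the mean of 4 other gene lists (horizontal axes), all as log2(FPKM + 1), with each point labelled by its cell number. The points follow a line for mitochondrial ribosomal proteins (Pearson 0.82), scatter for cytosolic ribosomal proteins (0.41), and for neutrophil genes cells 4 and 5 lie at the low and cell 6 at the high end.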

How the data were processed

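Single picked cells were turned into libraries with a SMART-Seq v4 3′ kit and Nextera XT, per the labels' protocols. TopHat2, Cufflinks and GRCm38 are named, with no version, in the submitters' processing notes. The deposited values are on a log2 scale, read from the values themselves as log2(FPKM + 1), and at each of the 7304 ranks above 0 in every cell the cells differ by at most 0.0246, as quantile normalization by the authors would give, although the number of rows at 0 differs between cells. No label or header records these steps. Back on the linear scale the cells total 646250 to 646278, so RNA content and depth cannot be seen, and no counting interval can be given. The plan assumed linear FPKM, and its thresholds were converted (an FPKM of 1 is a log2 value of 1). All 14 value columns matched a sample by title.

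Computed with Python 3.11.15, NumPy 2.4.6, pandas 2.3.3, SciPy 1.17.1 and matplotlib 3.10.9 were detection, means per gene, complex and cell, differences within cells, deviations from the other cells and correlations, after the code had been tested on simulated data. Lengths are medians over the protein-coding transcripts of a gene in the GENCODE M21 basic annotation and reach 9542 of the 9558 rows. For the 16 repeated symbols the first row was used. Subunits were assigned to complexes, sectors and classes from general knowledge. Members and lists were chosen with earlier results of these data known. Per complex, the highest and lowest member by mean, the member with the largest SD and all isoforms were named with their values, and any member could be named besides; other genes come from the lists. The values of 1 member are not reported here by name. Alternatives were other detection thresholds, undone division by length, medians, the linear scale, leaving out cells, and other member sets.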

Additional observations from a re-analysis of the deposited data

How the results depend on the processing

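Of 188 alternatives tried over 35 results, 158 kept the direction and moved the value by less than the bound used, 25 moved it further and 5 turned the direction. Some of the 158 could not change. All 74 subunits were detected in at least 7 cells, so asking for this left every complex difference as it was. Changed members of complexes I and IV left differences among complexes II, III and V unchanged. Leaving out cells 11 and 14 could not alter the lowest or highest cell. For the detection counts and shares and the far-below share, the bound was not a spread over cells. The count of 158 thus overstates how stable the results are. The number of subunits detected in all cells, 66 at an FPKM of 1, fell to 42 when an FPKM of 10 was asked for and to 25 with a log2 value of 5. The share of complex II pairs detected, 96.4%, was 55.4% and 50% under the same thresholds. The 15.8% of all rows detected in every cell applies to an FPKM of 1. No share over all rows is given at the stricter thresholds, so the standing of the subunits there is not shown. With the median over members, complex III minus complex I was 1.58, complex IV minus complex III 1.04 and complex V minus complex III -0.11. On the linear scale, complex IV minus complex I was 1.82, complex IV minus complex III 0.98, complex V minus complex III 0.16, the lowest cell stood at 8.15 and the highest at 10.15. With all rows that the rule takes, which adds low paralogues to complex IV and low assembly factors to complex I, complex III minus complex I was 1.20, complex IV minus complex I 0.88, complex V minus complex I 2.27, complex IV minus complex II 2.29, complex IV minus complex III -0.09 and complex V minus complex IV 1.39. With the division by length undone, complex IV minus complex II was 3.78, complex V minus complex IV -0.60 and core minus accessory subunits of complex I -1.34. Correlations with gene lists moved too. As Pearson instead of Spearman, that with leukocyte genes was -0.31, with macrophage genes -0.23 and with immediate early genes -0.32 (0.04 as Spearman, and -0.07 without cells 2 and 6). Without cells 11 and 14 it was -0.64 with leukocyte, -0.69 with macrophage and 0.89 with mitochondrial ribosomal genes. Without cells 2 and 6 it was -0.33 with stromal and 0.79 with mitochondrial ribosomal genes. The causes were not tested beyond the changed member sets. Leaving out cells 2 and 6, the all-rows complex means, Ndufa4 in complex I, a log2 value of 5 the far-below thresholds and leaving out Sdhb were added after the data were seen; the far-below share, 13.2%, was 19.6% at 2 log2 units and 9.32% at 4, and 35.3% and 21.1% of other rows. It was 12.9% without Sdhb. The shares of other rows carry the limit of the filter given above. With 14 cells as 1 sample, the values describe these cells, and depth sets an unknown limit on the low levels.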
